A study of Mus musculus with 6 samples.

Results

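The Dlg scaffold family was taken as the 4 mouse genes Dlg1, Dlg2, Dlg3 and Dlg4, found by symbol through their Ensembl identifiers, among 49671 genes in the gene table. Their transcripts numbered 52 of the 123063 in the transcript table. They were measured by sequencing of total RNA from C57BL/6 cortical neurons, taken from neocortex at embryonic day 14 and grown as primary cultures in dishes. The study followed neurons across the days when a neurite becomes the axon, and asked what the splicing regulator PTBP2 does in that interval. There were 3 groups of 2 libraries. The first group was wild type after 3 days in vitro (DIV3). The second was labelled Ptbp2 knockout and was collected after 1 day in vitro (DIV1). The third was wild type at DIV1 and served both comparisons, which are therefore not independent. Neither the allele nor any Cre driver nor the litters are given in the sources used here. The libraries of a group are called biological replicates, but separate embryos or cultures are not stated. The p-values therefore measure the spread between libraries and no more, which may be technical.

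Dlg proteins are membrane-associated guanylate kinases. Each carries PDZ domains, which bind the tails of receptors and channels, followed by an SH3 domain and a guanylate kinase-like domain that binds other scaffolds. Dlg4 encodes PSD-95, the main scaffold of excitatory postsynapses; Dlg2 encodes PSD-93 and Dlg3 encodes SAP102, both also synaptic, while Dlg1 encodes SAP97, which also acts in epithelial polarity and receptor trafficking. In mouse neurons, PTBP1 and PTBP2 are known to repress Dlg4 exon 18. Transcripts that skip it are known to be removed by nonsense-mediated decay, and PSD-95 appears as PTBP levels fall during maturation.

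Library totals ran between 39104879 and 75522198 expected counts. The expected counts are estimates of reads per gene or transcript that need not be whole. Ptbp2, on chromosome 3, had 403 and 382 CPM (counts scaled to a common library size with TMM) at DIV3, 474 and 514 CPM in the knockout-labelled libraries and 465 and 429 CPM in wild type at DIV1. The knockout-labelled libraries were thus not lower for Ptbp2 (log2 fold change 0.14 ± 0.09 SE, adjusted p = 0.413, edgeR), and a whole-gene count does not test a deletion of part of a gene, so knockout denotes the label throughout. Ptbp1, the paralog of progenitors, fell at DIV3 (113 and 106 CPM, against 167 and 158 CPM in wild type at DIV1; -0.57 ± 0.09, adjusted p = 0.00276, edgeR). All 11 neuron markers were above 1 CPM in at least 1 library, and their summed level was 8706 to 8909 CPM at DIV3, 5462 to 5915 CPM in knockout-labelled libraries and 6203 to 6447 CPM in wild type at DIV1. Of these markers, 5 were called higher and 3 lower at DIV3 (edgeR). Intermediate progenitor markers summed to 351 to 369 CPM at DIV3 and to 652 to 666 CPM in wild type at DIV1. The 7 pericyte and fibroblast markers summed to 53.9 to 54.2 CPM at DIV3, against 16.4 to 17.7 CPM in wild type at DIV1, and 1 of them stayed under 1 CPM in every library. Interneuron markers summed to 173 to 187 CPM at DIV3, 66.2 to 94.4 CPM in knockout-labelled libraries and 76.4 to 84.7 CPM in wild type at DIV1. The 6 erythroid markers summed to 1.23 to 1.37 CPM at DIV3, 34.0 to 44.3 CPM in knockout-labelled libraries and 14.4 to 27.1 CPM in wild type at DIV1. In bulk cultures, fewer cells of a type and less RNA per cell cannot be told apart, and the part of these marker differences in the Dlg results was not tested. Gene length moved with the knockout contrast: the median log2 fold change was 0.22 in the shortest 20% of genes and -0.18 in the longest 20%. The knockout-labelled libraries also differed from each other along length, at 0.22 and -0.22 for replicate 1 over replicate 2.

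Exon 18 of Dlg4, which PTBP1 and PTBP2 are known to repress, is printed here with its relatives so that the letters skipped can be seen. It lies on chr11:70043658-70043767 (GRCm38, plus strand) in the coding sequence, is 110 bases long and therefore shifts the reading frame when it is left out. The sequences come from GENCODE M21 transcripts of GRCm38 and run 5′ to 3′, with the exon in capitals and 20 bases of each neighbouring exon in lower case.
Dlg4 exon 18: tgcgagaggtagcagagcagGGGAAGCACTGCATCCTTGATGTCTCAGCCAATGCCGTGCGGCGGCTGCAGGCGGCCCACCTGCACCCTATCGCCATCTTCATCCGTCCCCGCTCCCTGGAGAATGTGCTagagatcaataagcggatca
Dlg1 counterpart of Dlg4 exon 18: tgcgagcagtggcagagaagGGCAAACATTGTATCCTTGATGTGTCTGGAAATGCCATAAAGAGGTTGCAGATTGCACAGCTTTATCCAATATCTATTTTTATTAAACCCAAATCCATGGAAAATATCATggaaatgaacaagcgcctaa
Dlg2 counterpart of Dlg4 exon 18: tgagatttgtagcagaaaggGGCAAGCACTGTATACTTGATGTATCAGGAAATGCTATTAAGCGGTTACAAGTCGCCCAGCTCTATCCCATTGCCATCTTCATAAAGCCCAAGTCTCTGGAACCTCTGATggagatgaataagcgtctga
Dlg3 counterpart of Dlg4 exon 18: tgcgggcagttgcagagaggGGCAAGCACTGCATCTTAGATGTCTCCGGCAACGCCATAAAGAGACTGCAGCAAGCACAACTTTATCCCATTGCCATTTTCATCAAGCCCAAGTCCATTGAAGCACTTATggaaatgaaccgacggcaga
The junction that replaces it was taken from Dlg4-205, with the last base before and the first base after the junction in capitals.
Dlg4 skip junction: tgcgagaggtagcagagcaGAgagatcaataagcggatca
The counterparts lie on chr16:31863173-31863282, chr7:92437965-92438074 and chrX:100814793-100814902, all on the plus strand, and are also 110 bases long. Dlg4 exon 18 shared 70 of 110 bases with Dlg1, 75 with Dlg2 and 74 with Dlg3. Between Dlg1, Dlg2 and Dlg3 the counterparts shared 81 to 83 bases, so Dlg4 was the most diverged of the 4. Only Dlg4 had an annotated transcript that skips the exon: 1 of its transcripts did, against 0 in Dlg1, Dlg2 and Dlg3. That transcript, Dlg4-205, is annotated for nonsense-mediated decay. Its TAA stop lies 80 bases before the last exon junction, past the usual limit of 50 bases, whereas the stops of Dlg4-201 and Dlg4-203 lie in their last exons.

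The second place where the family varies is a pair of alternative exons upstream of the guanylate kinase-like domain. They are printed because the share of Dlg3 counts in long-exon transcripts did not overlap between DIV3 and wild type at DIV1. In Dlg2 and Dlg3 alike, the long exon has 100 bases and the short exon has 46, and they are printed as above.
Dlg2 long exon: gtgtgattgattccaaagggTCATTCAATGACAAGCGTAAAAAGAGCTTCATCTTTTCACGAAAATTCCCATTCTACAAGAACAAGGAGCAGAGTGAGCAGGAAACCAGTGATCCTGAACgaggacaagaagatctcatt
Dlg3 long exon: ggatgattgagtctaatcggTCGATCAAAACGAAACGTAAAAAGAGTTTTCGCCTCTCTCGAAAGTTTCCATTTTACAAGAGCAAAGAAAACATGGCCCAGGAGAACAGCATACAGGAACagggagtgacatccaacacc
Dlg2 short exon: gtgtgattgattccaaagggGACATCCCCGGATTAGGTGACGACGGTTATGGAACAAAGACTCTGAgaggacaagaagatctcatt
Dlg3 short exon: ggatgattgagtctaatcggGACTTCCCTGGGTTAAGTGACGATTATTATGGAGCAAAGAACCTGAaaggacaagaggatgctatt
In the same format, an additional exon of 42 bases, a multiple of 3, follows the short exon in Dlg3-202 and the long exon in Dlg3-203 and Dlg3-208.
Dlg3 extra exon: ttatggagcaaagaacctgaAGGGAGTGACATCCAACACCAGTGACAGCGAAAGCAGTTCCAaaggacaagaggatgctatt
The Dlg3 exons lie on chrX:100808053-100808152 (long), chrX:100809862-100809907 (short) and chrX:100811502-100811543 (additional), plus strand. The Dlg2 long and short exons lie on chr7:92417224-92417323 and chr7:92418088-92418133, also on the plus strand. The long exons of Dlg2 and Dlg3 shared 70 of 100 bases. The short exons of Dlg2 and Dlg3 shared 36 of 46 bases.

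Between DIV1 and DIV3 in wild type, 3 of the 4 Dlg genes changed, and not in the same direction. Dlg2 rose 3.11-fold, Dlg4 rose 1.27-fold and Dlg1 fell to 0.693 of its DIV1 level, while Dlg3 did not pass the test. Across all 16847 genes tested, 36.1% were called (19.8% higher and 16.4% lower at DIV3), so a call by itself is common in this comparison. Scaling by library totals in place of TMM called 2563 higher and 3996 lower, against 3328 higher and 2760 lower with TMM. The calls come from edgeR's quasi-likelihood test at a Benjamini-Hochberg adjusted p under 0.05.

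Dlg4 (chromosome 11) had 203 and 200 CPM in DIV3 libraries and 160 and 157 CPM in wild-type DIV1 libraries. Both DIV3 libraries were above both DIV1 libraries. Its log2 fold change was 0.35 ± 0.07 (SE; adjusted p = 0.00697, edgeR). The call did not survive the loss of any of the 4 libraries compared: without wild-type DIV1 replicate 1 or 2 the adjusted p was 0.0783 or 0.0948, and without DIV3 replicate 1 or 2 it was 0.0792 or 0.0546, with fold changes of 0.33 to 0.37 (edgeR). Dlg2 (chromosome 7) had 222 and 205 CPM in DIV3 libraries and 69.4 and 67.7 CPM in wild-type DIV1 libraries. The groups lay far apart, and the log2 fold change was 1.64 ± 0.15 (SE; adjusted p = 0.000455, edgeR), or 3.11-fold. With any 1 of the 6 libraries left out, the Dlg2 value was 1.58 to 1.70.

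Dlg3 (X chromosome) had 92.1 and 98.7 CPM in DIV3 libraries and 85.4 and 91.2 CPM in wild-type DIV1 libraries. The difference was small beside the spread between replicates (0.11 ± 0.08, adjusted p = 0.295, edgeR). Scaling by library totals alone turned its sign (-0.0062, adjusted p = 0.956), in a scaling that moved the median over all genes to -0.13, against -0.02 with TMM. Dlg1 (chromosome 16) had 51.1 and 48.9 CPM in DIV3 libraries and 74.5 and 69.7 CPM in wild-type DIV1 libraries. It was the 1 member that fell (-0.53 ± 0.09, adjusted p = 0.0043, edgeR), and its groups did not overlap. Without wild-type DIV1 replicate 1 the value was -0.48 and no longer passed (adjusted p = 0.0532, edgeR).

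**Figure D1:**
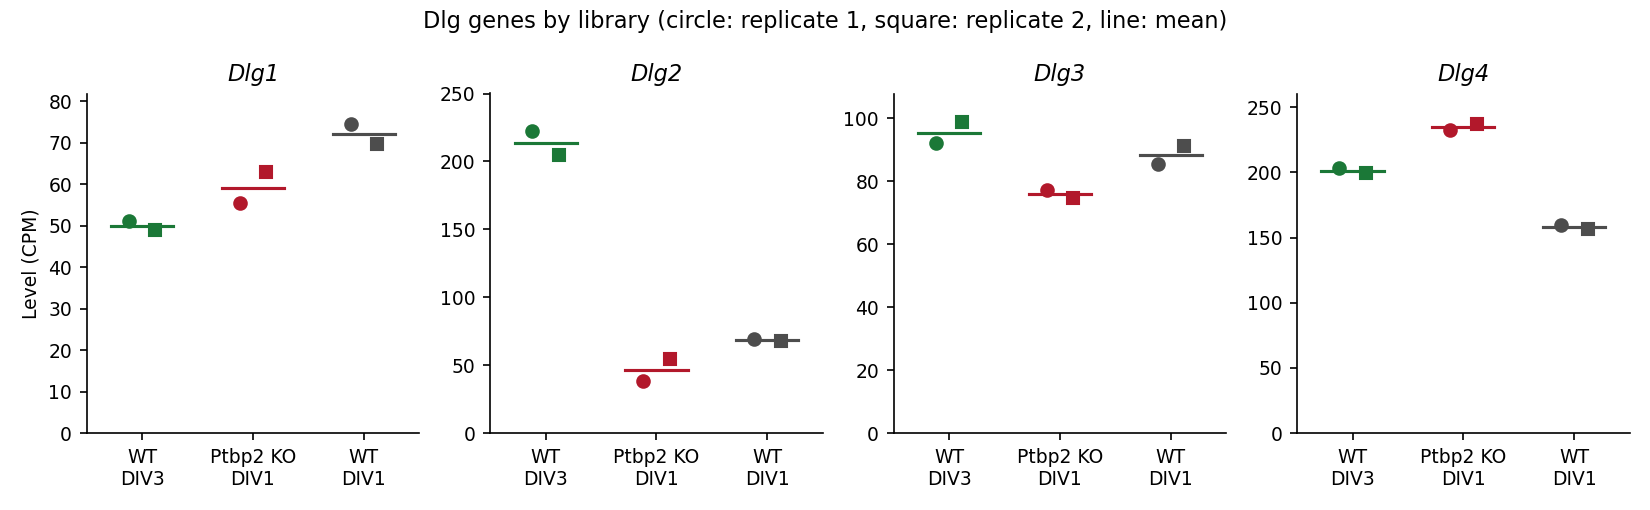
Level of each Dlg gene in CPM (y axis) in the 2 libraries of wild type at DIV3, Ptbp2 knockout-labelled at DIV1 and wild type at DIV1; circles are replicate 1, squares replicate 2 and lines the mean. Dlg2 stands at 222 and 205 CPM at DIV3, and Dlg4 is highest in the knockout-labelled libraries, at 233 and 237 CPM.

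In knockout-labelled against wild-type neurons at DIV1, Dlg4 stood at 233 and 237 CPM in the knockout-labelled libraries and at 160 and 157 CPM in wild-type libraries. By CPM the knockout-labelled level was also above the 203 and 200 CPM of wild type at DIV3. By TPM it was not: Dlg4 had 164 and 217 TPM in knockout-labelled libraries, 198 and 186 TPM at DIV3 and 161 and 151 TPM in wild type at DIV1. The log2 fold change was 0.57 ± 0.07 (SE), or 1.48-fold, with an unadjusted p of 6.1e-05, the rank 10 of 16847 genes, and an adjusted p = 0.0886 (edgeR), so it did not pass. The edgeR test called 0% of genes in this comparison: 0 passed, 2475 had an unadjusted p under 0.05, and DESeq2 called 201 of 14243. DESeq2 called Dlg4 (0.56, adjusted p = 7.5e-08), as did edgeR without a filter on low counts (0.58, adjusted p = 0.000132) and edgeR with the length trend removed (0.54, adjusted p = 0.0266). Leaving out knockout-labelled replicate 1 or replicate 2 gave 0.59 or 0.56. Each of these fits leaves 1 library in the group, so its p-value cannot hold the spread there. Leaving out 1 wild-type library gave no call. On simulated data for this comparison, edgeR recovered 21% of genes changed 1.5-fold and 87.5% of genes changed 2-fold.

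The other 3 members lay lower in the knockout-labelled libraries, and none passed. Dlg2 had 38.7 and 54.5 CPM in knockout-labelled libraries and 69.4 and 67.7 CPM in wild-type libraries (-0.56 ± 0.15, adjusted p = 0.333, edgeR). Its 2 knockout-labelled libraries differed from each other more than those of any other member. Without replicate 1 the value was -0.33, and without replicate 2 it was -0.82. With the length trend removed it was -0.38 ± 0.08 (adjusted p = 0.202), and DESeq2 called it at -0.56 (adjusted p = 0.0479). Dlg1 had 55.4 and 62.9 CPM in knockout-labelled libraries and 74.5 and 69.7 CPM in wild-type libraries (-0.29 ± 0.09, adjusted p = 0.333, edgeR). Leaving out knockout-labelled replicate 2 moved Dlg1 to -0.38. Dlg3 had 77.2 and 74.8 CPM in knockout-labelled libraries and 85.4 and 91.2 CPM in wild-type libraries (-0.22 ± 0.08, adjusted p = 0.333, edgeR). No alternative gave a call for Dlg3.

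**Figure D2:**
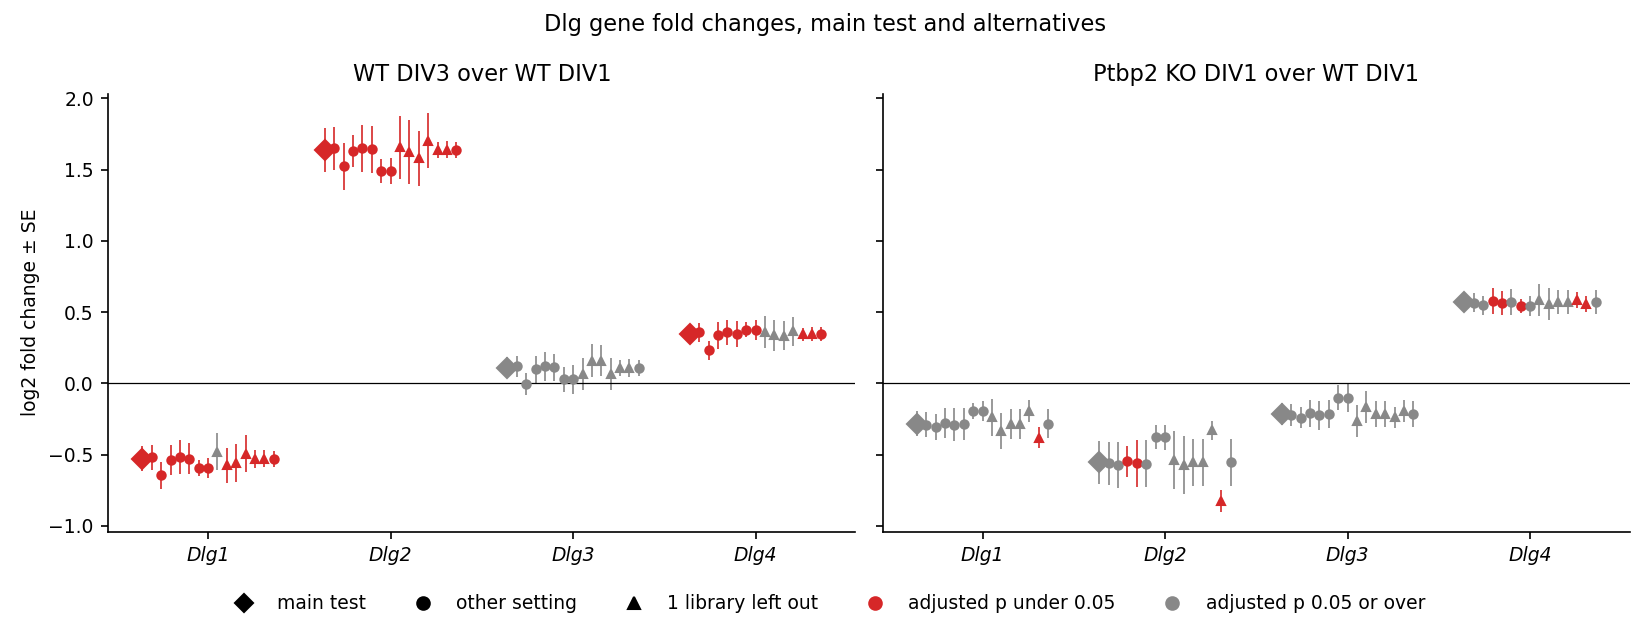
Log2 fold change ± SE (y axis) of the 4 Dlg genes, for wild type DIV3 over wild type DIV1 (left) and Ptbp2 knockout-labelled over wild type at DIV1 (right); diamonds are the main edgeR test, circles other settings, triangles fits without 1 library, and red marks an adjusted p under 0.05. In the right panel Dlg4 stays near 0.57 in every fit shown, all of them on counts and not TPM, while its call comes and goes. Dlg2 moves there between -0.33 and -0.82. Fits without 1 library leave 1 library in a group, whose spread their calls do not hold.

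Per length, as TPM computed from annotated transcript lengths, Dlg4 was the most abundant member in every library. At DIV3 the order was Dlg4 at 192 ± 8.45 TPM (SD, n = 2), Dlg2 at 80.2 ± 13.5, Dlg3 at 47.3 ± 2.45 and Dlg1 at 29.5 ± 2.37 TPM. No neighbours in that order overlapped. In knockout-labelled libraries the order was Dlg4 at 190 ± 37.4 TPM, Dlg3 at 39.8 ± 0.0276, Dlg1 at 30.5 ± 12.4 and Dlg2 at 15.8 ± 5.77 TPM. There Dlg3 and Dlg1 did not differ beyond their spread, since 1 Dlg1 library reached 39.2 TPM. In wild type at DIV1 the order was Dlg4 at 156 ± 6.69 TPM, Dlg3 at 51.4 ± 1.93, Dlg1 at 44.2 ± 2.99 and Dlg2 at 26.9 ± 2.73 TPM. Dlg2 was thus the least abundant member at DIV1 and the second most abundant at DIV3.

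As a share of the family's summed TPM, Dlg4 took 54.3% and 55.7% at DIV3, 69.1% and 68.7% in knockout-labelled libraries and 56.2% and 55.8% in wild type at DIV1. The Dlg2 share was 24.6% and 21.2% at DIV3, 4.95% and 6.31% in knockout-labelled libraries and 10.1% and 9.21% in wild type at DIV1. The Dlg1 share was 8.56% and 8.34% at DIV3, 9.18% and 12.4% in knockout-labelled libraries and 16.2% and 15.5% in wild type at DIV1. The share of Dlg4 was thus highest in the knockout-labelled libraries, which overlapped with neither wild-type group. Dlg3 had 12.5% and 14.7% at DIV3, 16.8% and 12.6% in knockout-labelled libraries and 17.5% and 19.5% in wild type at DIV1. An exact permutation test of 2 libraries against 2 cannot go below p = 0.333, so these shares were compared by their overlap alone.

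Dlg4 was read through 2 long coding transcripts that differ in their first exon. Dlg4-203 held 69.1% and 68.8% of the gene's counts at DIV3, 75.8% and 73.5% in knockout-labelled libraries and 65.8% and 71.1% in wild type at DIV1. Dlg4-201 held 18.5% and 18.8% at DIV3, 18.5% and 15.8% in knockout-labelled libraries and 19.5% and 15.2% in wild type at DIV1. The balance between the 2 did not differ beyond the replicate spread in either comparison (log2 ratio of Dlg4-201 to Dlg4-203, 0.10 ± 0.27 at DIV3 and -0.14 ± 0.27 in the knockout-labelled group; adjusted p = 0.973 and 0.843, limma). The transcript test put Dlg4-203 at 0.39 ± 0.08 for DIV3 against DIV1 (adjusted p = 0.0863) and at 0.77 ± 0.08 for knockout-labelled against wild type (adjusted p = 0.384, edgeR). Without knockout-labelled replicate 2, those values were 0.39 and 0.82.

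Dlg4-205, the transcript without exon 18, was lowest in knockout-labelled libraries. It held 171 and 110.5 expected counts at DIV3, 57.1 and 103 in knockout-labelled libraries and 195 and 210 in wild type at DIV1. Set against the full-length transcripts that keep the exon (Dlg4-201, Dlg4-203 and Dlg4-204), it made up 1.31% and 1.67% at DIV3, 0.483% and 0.659% in knockout-labelled libraries and 2.88% and 2.97% in wild type at DIV1. The 3 groups did not overlap: the knockout-labelled libraries were lowest and wild type at DIV1 highest. Only Dlg4-205 is annotated to skip the exon, so skipping in RNA with the other starts could not be counted. These percentages therefore do not measure how often the exon was left out. Dlg4-205 also begins at exons upstream of those where Dlg4-201 and Dlg4-203 begin. Dlg4-204, which shares that start and keeps exon 18, had 0 counts in every library. Whether the Dlg4-205 counts follow exon 18 or that start was not tested. The log2 ratio of skipped to kept was -2.40 ± 0.28 (SE) for knockout-labelled against wild type, with an unadjusted limma p of 0.000348, which did not pass over the 8168 ratios tested (adjusted p = 0.4, limma). For DIV3 against wild type at DIV1 the log2 ratio was -0.998 ± 0.284 (adjusted p = 0.708, limma). In that test 0% of ratios were called in either comparison: 0 passed, with 501 at an unadjusted p under 0.05 for DIV3 and 483 for the knockout-labelled group. Leaving out single libraries gave -2.62 to -2.18 for knockout-labelled against wild type, and none of these fits passed (limma).

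By transcript, Dlg4-205 had a log2 fold change of -1.66 ± 0.26 in knockout-labelled against wild-type libraries (adjusted p = 0.489, edgeR) and of -0.59 ± 0.25 at DIV3 against DIV1 (adjusted p = 0.317, edgeR). Those values run against Dlg4-203, which had 0.77 and 0.39. Of 47918 transcripts, 2.69% were called at DIV3 (1.86% higher and 0.831% lower) and 0% in the knockout-labelled group, where 0 passed and 3217 had an unadjusted p under 0.05 (edgeR). The isoform usage test, edgeR's diffSpliceDGE, did not hold Dlg4-205, which was under 5% of Dlg4. With no minimum share it gave Dlg4-205 a log2 difference from the rest of Dlg4 of -1.60 in the knockout-labelled group (adjusted p for Dlg4 0.735 over 9477 genes). RSEM assigns reads shared between transcripts by a model, and the reads over the skip junction itself are not in the tables used here, so the split carries an error that none of these tests holds. Knockout-labelled replicate 1 stood apart in the 5 short transcripts of the 5′ part of Dlg4, which held 8.07% and 8.46% of its counts at DIV3, 3.59% and 7.72% in knockout-labelled libraries and 8.27% and 8.44% in wild type at DIV1. Dlg4-205 was low in both knockout-labelled libraries.

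**Figure D3:**
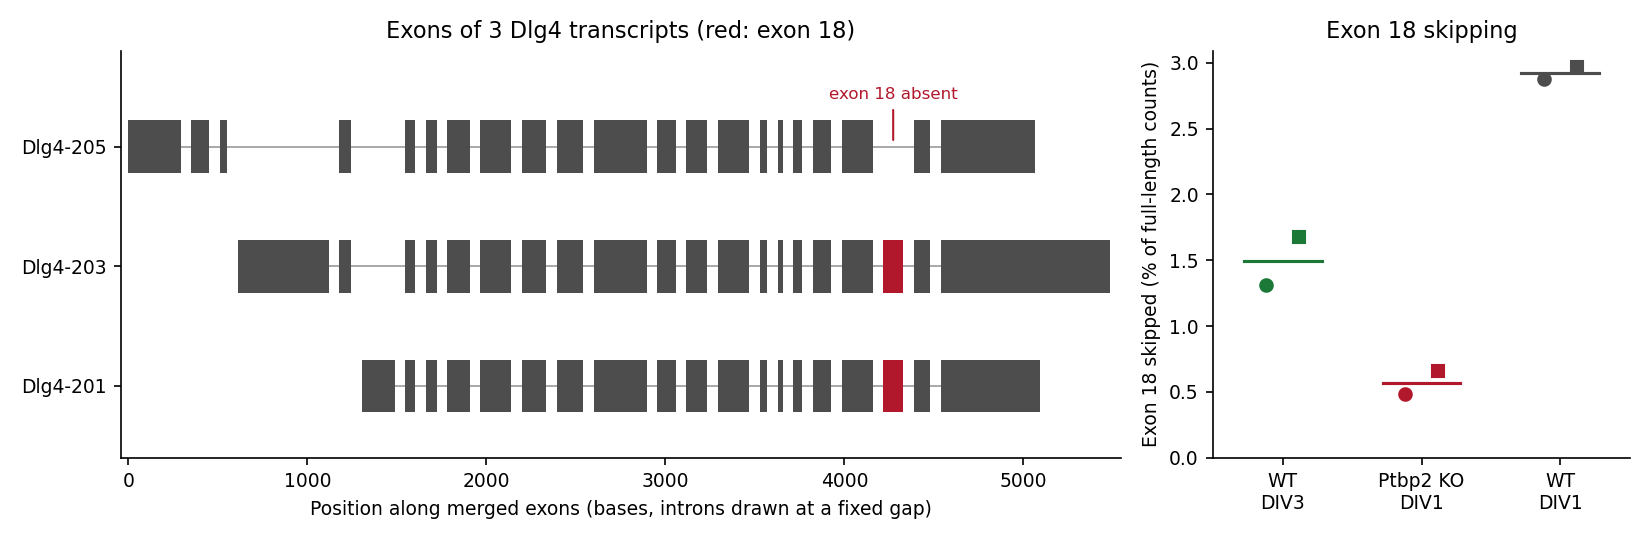
Left, the exons of Dlg4-205, Dlg4-203 and Dlg4-201 along the merged exons in bases (x axis, introns drawn at a fixed gap), with exon 18 in red and absent from Dlg4-205. Dlg4-205 also begins at exons further upstream. Right, Dlg4-205 as a percentage of full-length Dlg4 counts (y axis) in each library of wild type DIV3, Ptbp2 knockout-labelled DIV1 and wild type DIV1 (line: mean), where the knockout-labelled libraries sit at 0.483% and 0.659%, below both other groups.

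For Dlg3, the total level did not pass the test at DIV3 by CPM, and by TPM it was 45.6 and 49.1 at DIV3, against 50.1 and 52.8 in wild type at DIV1. The shares of its transcripts did not overlap between these groups for some transcripts, but no test of them passed with all libraries and the minimum share. Dlg3-201, a coding transcript with the short exon, held 56.2% and 49.97% of the gene at DIV3, 12.8% and 25.9% in knockout-labelled libraries and 20.5% and 23.8% in wild type at DIV1. Dlg3-203, a shorter coding transcript with the long exon, held 1.14% and 0% at DIV3, 1.16% and 4.99% in knockout-labelled libraries and 19.2% and 11.8% in wild type at DIV1. Dlg3-201 was thus the largest transcript of the gene in both DIV3 libraries, and Dlg3-203 was near 0 there. Dlg3-208, annotated as a processed transcript and also carrying the long exon, held 14.3% and 27.6% at DIV3, 65.5% and 39.6% in knockout-labelled libraries and 31.3% and 42.8% in wild type at DIV1. Dlg3-202, which has the short exon and adds the 42-base exon and an upstream 54-base exon, held 26.1% and 21.4% at DIV3, 19.7% and 27.9% in knockout-labelled libraries and 27.0% and 20.2% in wild type at DIV1. Dlg3-201, Dlg3-203 and Dlg3-208 separated DIV3 from wild type at DIV1 without overlap, and Dlg3-202 did not. Such a separation of 2 libraries from 2, here or for other transcripts, reaches only p = 0.333 in an exact permutation test. How often it occurs over all transcripts was not counted.

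Summed over transcripts, those with the long exon held 17.4% and 28.4% of Dlg3 counts with either exon at DIV3. They held 67.4% and 46.0% in knockout-labelled libraries and 52.0% and 55.7% in wild type at DIV1. Most of these counts came from Dlg3-203 and Dlg3-208. Both begin downstream of the first exons of Dlg3-201 and Dlg3-202, which carry the short exon. Whether the long-exon share follows the exon or that start was not tested. The log2 ratio of long to short was -2.01 ± 0.55 (SE) for DIV3 against wild type at DIV1, with an unadjusted p of 0.0143 and an adjusted p = 0.708 (limma). For the knockout-labelled group it was 0.19 ± 0.55 (adjusted p = 0.896, limma). Dlg3-202, with the 42-base exon, made up 31.8% and 29.9% of full-length coding counts with the short exon at DIV3. It made up 60.7% and 51.8% in knockout-labelled libraries and 56.8% and 45.9% in wild type at DIV1. Its log2 ratio to Dlg3-201 for DIV3 against DIV1 was -1.24 ± 0.36 (adjusted p = 0.708, limma). Dlg3-202 also has the upstream 54-base exon. Dlg3-204, which has that exon without the 42-base one, had 0 counts in every library. Which exon the share follows was not tested. DIV3 lay below wild type at DIV1 for both shares, without overlap.

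The isoform usage test over 7645 genes called 0.602% of genes at DIV3 and 0.968% in the knockout-labelled group, and its gene-level F test called 2.35% and 1.99%. Dlg3 was not called at DIV3 (adjusted p = 0.431; 0.14 by the F test, edgeR) nor in the knockout-labelled group (adjusted p = 1, edgeR). The DIV3 difference of Dlg3 passed only in the fit without DIV3 replicate 1, which leaves 1 library in that group. Without either wild-type DIV1 library it did not pass. With no minimum share the gene reached an adjusted p = 0.0592 (edgeR), and its leading transcript, Dlg3-203, differed from the rest of Dlg3 by -3.30 on the log2 scale (adjusted p = 0.0417 over transcripts, edgeR). On simulated data for the knockout-labelled comparison, the most abundant transcript of a gene was lowered and the next raised by the same fold. This test recovered 0% of such genes at 2-fold each, 50.5% at 4-fold and 90% at 8-fold. Beside 0, 101 and 180 genes recovered, it also called 1, 25 and 45 unchanged genes.

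Dlg1 was divided among more transcripts than the other members, with 5 at a share of 5% or more. Dlg1-206, the main coding transcript, held 24.9% and 28.7% at DIV3, 65.0% and 45.9% in knockout-labelled libraries and 34.8% and 44.6% in wild type at DIV1. Dlg1-209, annotated for nonsense-mediated decay with its stop 795 bases before the last junction, held 31.4% and 37.1% at DIV3, 16.9% and 27.3% in knockout-labelled libraries and 30.1% and 25.6% in wild type at DIV1. DIV3 was lower than wild type at DIV1 for Dlg1-206 and higher for Dlg1-209, without overlap, but neither the isoform usage test (adjusted p = 1 in both comparisons, edgeR) nor the ratio of Dlg1-209 to coding transcripts passed (0.42 ± 0.43 at DIV3, adjusted p = 0.908; -0.51 ± 0.43 in the knockout-labelled group, adjusted p = 0.636, limma). Dlg1-202 held 13.32% and 12.05% at DIV3, 6.38% and 7.97% in knockout-labelled libraries and 11.1% and 9.60% in wild type at DIV1. The knockout-labelled libraries were lowest for it, without overlap. Dlg1-204, which begins at a later first exon, held 10.3% and 8.45% at DIV3, 0.902% and 4.38% in knockout-labelled libraries and 5.78% and 4.65% in wild type at DIV1. Dlg1-203 held between 6.05% and 11.1% in every library. Dlg1-209 also lacks a 99-base exon that Dlg1-206 carries, and the last exon of Dlg1-206 is longer, at 3455 against 1675 bases. Whether the shares follow the decay stop or these other differences was not tested.

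Dlg2 was read almost wholly through Dlg2-204, which carries the short exon. This transcript of 7490 bases held 91.0% and 95.1% of the gene at DIV3, 95.5% and 93.8% in knockout-labelled libraries and 89.3% and 93.6% in wild type at DIV1. It was the only transcript of Dlg2 at a share of 5% or more, so isoform usage was not tested for Dlg2 at that minimum. Its log2 fold change at DIV3 was 1.68 ± 0.14 (adjusted p = 0.0217, edgeR), the only transcript of the family that passed in either comparison. Without any 1 of the 4 libraries compared, it no longer passed (adjusted p between 0.195 and 0.289). The same fits called 0 of all transcripts (edgeR). In the knockout-labelled group Dlg2-204 had -0.43 ± 0.13 (adjusted p = 0.597, edgeR), and without knockout-labelled replicate 2 it had -0.62. The long exon made up 1.42% and 0.776% of Dlg2 counts with either exon at DIV3, 0.215% and 0.693% in knockout-labelled libraries and 1.23% and 1.15% in wild type at DIV1.

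**Figure D4:**
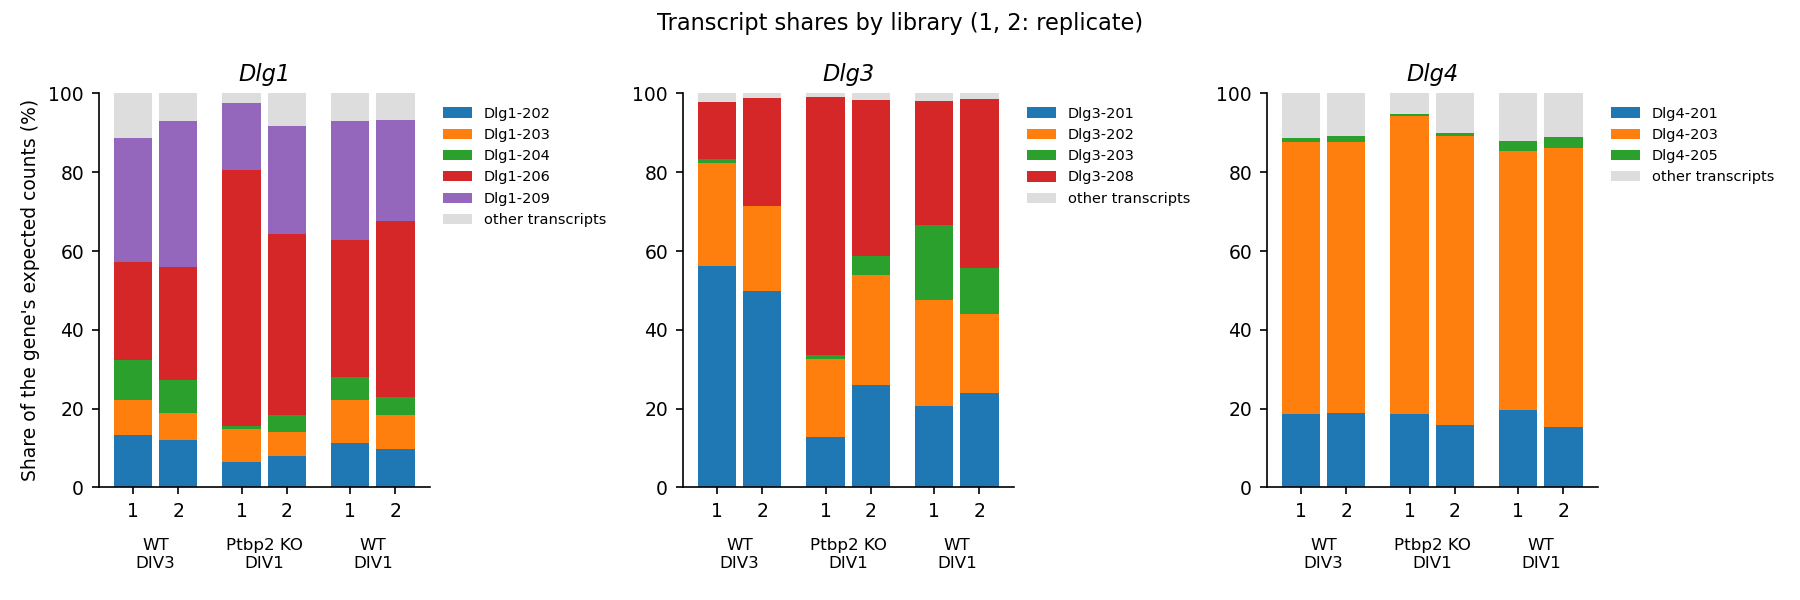
Share of each gene's expected counts (%, y axis) held by its transcripts in each library of wild type DIV3, Ptbp2 knockout-labelled DIV1 and wild type DIV1, for Dlg1, Dlg3 and Dlg4 (grey: all other transcripts). Dlg3-201 takes 56.2% and 49.97% at DIV3, while Dlg4-201 and Dlg4-203 keep similar shares in all libraries and Dlg4-205 is thinnest in the knockout-labelled ones.

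Genes with the pattern most like each member were named by the root mean square difference of centred log2 CPM over the 6 libraries, among 11042 genes with at least 5 CPM on average. This is a description of 6 libraries and 3 groups. Nearest to Dlg4 were Gm43597 (0.085), Got1 (0.11), a glutamate-aspartate transaminase, and Asns (0.11), the asparagine synthetase. The median distance of all genes from Dlg4 was 0.31. Nearest to Dlg2 were Tmem132b (0.049), Grin2a (0.072), an NMDA receptor subunit, and Doc2b (0.076), a calcium sensor of vesicle release, against a median of 0.96. Grin2a had 13.1 and 13.2 CPM at DIV3, 2.43 and 3.48 CPM in knockout-labelled libraries and 4.08 and 3.81 CPM in wild type at DIV1. Nearest to Dlg3 were Plcb3 (0.036), a phospholipase C, Brdt (0.037), a bromodomain protein, and St8sia3 (0.038), a sialyltransferase (median 0.24). Nearest to Dlg1 were Sh3bgrl2 (0.019), Arhgef40 (0.035) and Cdk5rap2 (0.039), a centrosomal protein (median 0.30).

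The genes known to work with Dlg proteins were followed in 6 lists. At DIV3 the lists of receptors, adhesion proteins and signalling proteins had far more members higher than lower, against 19.8% of all genes called higher and 16.4% lower. In the knockout-labelled group edgeR called 0 members of any list, with 1 to 13 of a list at an unadjusted p under 0.05. DESeq2 called 2 of 28 receptors, 2 of 32 adhesion partners and 1 of 33 signalling partners there, all lower, with 14243 genes tested in all. With no filter on low counts, edgeR called 1061 of 26492 genes. Among them were 4 receptors, 5 adhesion partners, 5 signalling partners, 2 polarity partners and 1 MAGUK relative, all lower, and 1 modifying enzyme, higher. These directions were not compared with those of the calls over all genes.

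Among receptors and channels that Dlg PDZ domains bind, 22 of 29 tested rose at DIV3 and 1 fell, with a median log2 fold change of 0.76, against -0.02 over all genes. The obligatory NMDA receptor subunit Grin1 had 51.2 and 51.0 CPM at DIV3, against 19.2 and 20.2 CPM in wild-type DIV1 libraries (1.38 ± 0.10, adjusted p = 0.000182, edgeR). Grin2b, the early NMDA subunit, had 410 and 379 CPM at DIV3, against 147 and 144 CPM in wild-type DIV1 libraries (1.44 ± 0.12, adjusted p = 0.000279, edgeR). The inward rectifier potassium channel gene Kcnj2 had 17.6 and 17.7 CPM at DIV3, against 0.725 and 0.707 CPM in wild-type DIV1 libraries (4.62 ± 0.18, adjusted p = 5.85e-05, edgeR). Both NMDA subunits thus rose, as Dlg2 and Dlg4 did, and whether the sizes differ was not tested. Atp2b4, a plasma membrane calcium pump, was the member that fell (-0.36 ± 0.11, adjusted p = 0.0414, edgeR), and the kainate receptor subunit Grik5 had 0.09 ± 0.09 (adjusted p = 0.49, edgeR). In the knockout-labelled group the list's median was -0.15 (-0.04 with the length trend removed), and Grin2b had 0.00 ± 0.11 (adjusted p = 0.992, edgeR).

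Of 34 adhesion and secreted partners, 26 rose at DIV3 and 1 fell (median 0.51). Lgi2, a secreted ligand of ADAM receptors, had 40.8 and 40.1 CPM at DIV3, against 13.9 and 15.1 CPM in wild-type DIV1 libraries (1.48 ± 0.10, adjusted p = 0.000164, edgeR). Lrfn1 (0.97 ± 0.09, adjusted p = 0.000386, edgeR) and Lrrtm1 (0.87 ± 0.08, adjusted p = 0.00041, edgeR) encode postsynaptic leucine-rich repeat proteins. Lgi4, under 1 CPM in every library, fell (-2.96 ± 0.66, adjusted p = 0.0134, edgeR), and Adam22, the receptor of LGI1 that binds PSD-95, had 0.17 ± 0.11 (adjusted p = 0.267, edgeR). In the knockout-labelled group the median was -0.17 (-0.09 with the length trend removed), with Clstn1 (calsyntenin) at -0.05 ± 0.08 (adjusted p = 0.754, edgeR).

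Of 33 cytoplasmic signalling partners, 19 rose at DIV3 and 1 fell (median 0.50). The kinase gene Camk2a had 42.6 and 38.4 CPM at DIV3, against 8.78 and 9.37 CPM in wild-type DIV1 libraries. Camk2b had 624 and 653 CPM at DIV3, against 162 and 179 CPM in wild-type DIV1 libraries. Dlgap1, whose protein binds the guanylate kinase-like domain of PSD-95, had 109 and 103 CPM at DIV3, against 26.1 and 27.7 CPM in wild-type DIV1 libraries (1.98 ± 0.13, adjusted p = 0.000158, edgeR). Cit, the citron kinase gene, fell (-1.03 ± 0.12, adjusted p = 0.000954, edgeR), and Tnik had 0.12 ± 0.12 (adjusted p = 0.441, edgeR). The knockout-labelled median was -0.27, and it was -0.06 with the length trend removed. Dynll2, a dynein light chain gene, had 0.15 ± 0.10 there (adjusted p = 0.428, edgeR).

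Enzymes that palmitoylate, phosphorylate or turn over Dlg proteins were more mixed, with 9 of 28 higher at DIV3 and 2 lower (median 0.16). Zdhhc2, a palmitoyltransferase of PSD-95, had 100.5 and 103 CPM at DIV3, against 37.8 and 35.8 CPM in wild-type DIV1 libraries (1.47 ± 0.07, adjusted p = 8.83e-05, edgeR). The kinase genes Plk2 (0.76 ± 0.07, adjusted p = 0.00052, edgeR) and Mapk10 (0.68 ± 0.09, adjusted p = 0.00158, edgeR) also rose. Mapk12 (-1.57 ± 0.26, adjusted p = 0.00431, edgeR) and the ubiquitin ligase gene Mdm2 (-0.27 ± 0.07, adjusted p = 0.0298, edgeR) fell, and Gsk3b had 0.26 ± 0.15 (adjusted p = 0.215, edgeR). The knockout-labelled median was -0.03, but 0.06 with the length trend removed and 0.004 without knockout-labelled replicate 1, with Cdk5r1, the activator of Cdk5, at -0.29 ± 0.10 (adjusted p = 0.333, edgeR).

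Polarity and trafficking partners moved both ways at DIV3, with 9 of 22 higher and 6 lower (median 0.18). Epb41l1, a protein 4.1 gene, rose (1.09 ± 0.08, adjusted p = 0.000235, edgeR), as did Lin7a, an adaptor of the Cask complex (1.28 ± 0.12, adjusted p = 0.000454, edgeR), and Pkp4 (0.85 ± 0.07, adjusted p = 0.000292, edgeR). The polarity genes Llgl1 (-0.65 ± 0.07, adjusted p = 0.000708, edgeR), Gpsm2 (-0.69 ± 0.07, adjusted p = 0.000713, edgeR) and Vangl2 (-0.45 ± 0.07, adjusted p = 0.00377, edgeR) fell, as Dlg1 did. Llgl1 had 103 and 96.8 CPM at DIV3, against 156 and 156 CPM in wild-type DIV1 libraries. Epb41 had -0.14 ± 0.10 (adjusted p = 0.325, edgeR), and in the knockout-labelled group Kif1b had -0.22 ± 0.12 (adjusted p = 0.365, edgeR) in a list with a median of -0.09, which was 0.06 with the length trend removed. The MAGUK relatives outside the 4 members moved least: 2 of 16 rose, 2 fell and 12 did not pass. Their median was 0.05, and it was below 0 with library totals (-0.07) and without DIV3 replicate 1 (-0.009). Cask (0.49 ± 0.08, adjusted p = 0.00449, edgeR) and Magi3 (0.53 ± 0.13, adjusted p = 0.0185, edgeR) rose, while Mpp5, a gene of cell junctions and polarity, fell (-0.62 ± 0.13, adjusted p = 0.0122, edgeR). Magi1 had 0.01 ± 0.12 at DIV3 (adjusted p = 0.939, edgeR), and Cask had -0.17 ± 0.08 in the knockout-labelled group (adjusted p = 0.34, edgeR), where the list's median was -0.10. That median was above 0 with the length trend removed (0.004) and without knockout-labelled replicate 1 (0.002).

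These counts depended on the libraries. Without any 1 of the 4 libraries of the DIV3 comparison, the number higher was 14 or 15 for receptors and channels, 14 to 20 for adhesion partners and 12 to 14 for signalling partners, while the number lower was 0 or 1 and the medians stayed above 0.40 (0.63 to 0.90, 0.51 to 0.54 and 0.41 to 0.59). The number higher was 4 to 6 for modifying enzymes, 4 to 7 for polarity partners and 0 or 1 for MAGUK relatives. In the same fits the calls over all genes were fewer too, at 1609 to 2047 higher and 1134 to 1361 lower, against 3328 higher and 2760 lower with all libraries. Without knockout-labelled replicate 2, edgeR called 9 receptors, 14 adhesion partners and 19 signalling partners lower in the knockout-labelled replicate that remained, against 1 higher in each list. That fit called 2556 genes higher and 2993 lower of 17301 tested, and among modifying enzymes it called 6 higher and 8 lower. Without knockout-labelled replicate 1 it called 0 in every list.

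**Figure D5:**
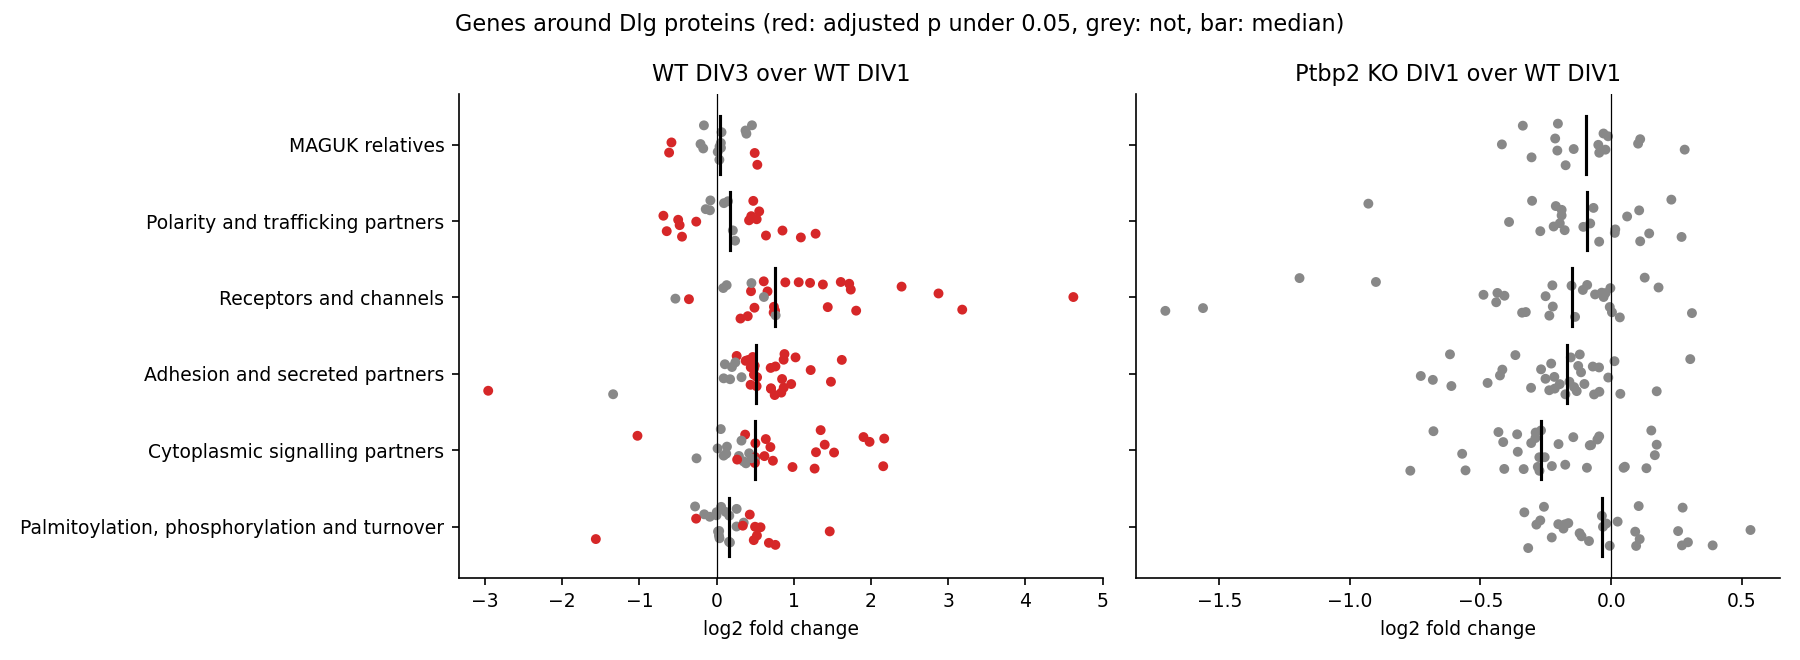
Log2 fold change (x axis) of each tested gene in the 6 lists (rows), for wild type DIV3 over wild type DIV1 (left) and Ptbp2 knockout-labelled over wild type at DIV1 (right); red points have an edgeR adjusted p under 0.05, grey points do not, black bars are medians, and the 2 panels have different x ranges. Receptors and channels have a median of 0.76 at DIV3 and -0.15 in the knockout-labelled group, where no point is red.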

How the data were processed

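Cultured cortical neurons were sequenced as 3 groups of 2 libraries. The authors deposited expected counts per gene and per transcript, estimated read counts that are not scaled for depth or length. The submitters' processing notes name STAR, RSEM and GRCm38; no version or annotation release is given in the sources used here. Names, lengths, exons and sequences came from GENCODE M21 (GRCm38), matched on unversioned identifiers (99.3% of genes).

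Expected counts were rounded and fitted for all 6 libraries with edgeR 4.0.16 in R 4.3.3 (filterByExpr minimum count 10, TMM, quasi-likelihood F test, 3 residual degrees of freedom, Benjamini-Hochberg adjustment over all genes or transcripts, threshold 0.05). Each standard error is the absolute log2 fold change over the root of its F statistic. Isoform usage was tested with diffSpliceDGE (Simes) on transcripts of at least 5% of their gene. Log2 ratios of transcript groups, with 0.5 added to each count, were tested with limma 3.58.1 over genes of at least 50 mean counts. The gene, isoform usage and ratio tests were tried on simulated data for the knockout-labelled comparison. DESeq2 1.42.0, other scalings, no filter, a length offset, the replicate block, and each library left out were alternatives.

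The members and lists were chosen with earlier results of these data known. Named were the members, their transcripts at 5% or more, Ptbp1 and Ptbp2, the 3 nearest patterns per member, and per list up to 3 called genes in each direction, by smallest adjusted p, plus the most abundant gene that did not pass. Dlg4-205 and the exon pairs are outside that rule, chosen with their values in view. The transcript counts of Dlg2 summed to within 66.0 counts of its gene count, and those of the other members to within 0.02. Some genes and exons of the lists and members are not reported here.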

Additional observations from a re-analysis of the deposited data

How the results depend on the processing

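Pairs of a result and an alternative were sorted apart for the main results and for other results. For the main results, 216 pairs were unchanged, 18 counts moved by over 1.5 times, 10 values newly passed, 5 no longer passed and 1 reversed. For the other results, 46 pairs were unchanged, 3 newly passed and 5 no longer passed. Unchanged means the same side of the threshold and any direction kept, or a count that moved by no more than 1.5 times. The cause of the changes was not tested. Scaling by library totals put Dlg3 at DIV3 at -0.0062. Genes called at DIV3 numbered 2743 to 8698 with 1 library left out (6088 with all), Dlg4 lost its call at 0.33 to 0.37 and Dlg1 lost it at -0.48; the lowest and highest values over all 6 such fits were 0.33 and 0.37 for Dlg4 and -0.58 and -0.48 for Dlg1. In the knockout-labelled contrast, genes called numbered 1061 with no filter, 201 by DESeq2, 24 with the length offset and 0 to 5549 with 1 library left out (0 with all). Dlg4 passed at 0.58 with no filter, 0.56 by DESeq2, 0.54 with the length offset, and stood at 0.56 to 0.59 with 1 library left out. Dlg2 passed at -0.55 with no filter and -0.56 by DESeq2, and ran between -0.82 and -0.33 with 1 library left out; Dlg1 ran between -0.38 and -0.20. The adjusted p of Dlg3 isoform usage at DIV3 ran between 0.0431 and 1 with 1 library left out. Transcripts called numbered 0 with the replicate block and 0 to 2804 with 1 library left out at DIV3 (1288 with all), and 0 to 1211 with 1 library left out in the knockout-labelled contrast. Noncoding ratios called there numbered 0 to 69.

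Replicate numbers are shared between groups, but nothing says that they pair libraries. Deviations of same-numbered libraries correlated at 0.54 for DIV3 with wild type at DIV1, -0.00016 for knockout-labelled with wild type at DIV1 and -0.15 for knockout-labelled with DIV3. With the number as a replicate block, genes called were 4702 at DIV3 and 0 in the knockout-labelled contrast (1473 at an unadjusted p under 0.05), Dlg4 had an adjusted p of 0.0374 at DIV3 and 0.432 in the knockout-labelled contrast (edgeR), and Dlg2-204 no longer passed at DIV3 (adjusted p = 0.138, edgeR). On simulated data for the knockout-labelled comparison, the gene test recovered 21% of genes changed 1.5-fold and the ratio test 39% at 4-fold. The isoform usage test recovered 0% with the most abundant transcript lowered and the next raised 2-fold, so smaller changes of transcripts may be missed.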
